A study of Mus musculus with 54 samples.

Results

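The interferon response genes are a named group of 41 genes that interferon switches on or that carry its signal, and 40 of them, of 18079 genes in the table, had a mean of at least 0.5 FPKM over all 54 libraries. FPKM is a read count scaled by gene length and library depth. The group and the other lists below were chosen by name, with earlier results of these data known. Within the group, the mean level was the only measurement used to keep a gene. Oas1g, with a mean of 0.381 FPKM, fell below the minimum, while Mx1 at 0.599 and Oas2 at 0.809 FPKM lay just inside it. RNA came from whole livers of female C57BL/6J mice aged 8 to 12 weeks, fed normal chow without restriction in cycles of 12 h light and 12 h dark, and harvested every 4 h at ZT0, 4, 8, 12, 16 and 20 (hours from lights on). The mice were wild type (WT), lacked the clock transcription factor BMAL1 (KO, labelled as a BMAL1 knockout), or were Liver-RE mice (Liver-RE BMAL1-stop-FL), in which BMAL1 is put back in the liver of an animal that otherwise lacks it. Each genotype and time had 3 animals, 18 per genotype; neither the driver that restores BMAL1 nor the litter of each animal is stated in the labels. The series is about the autonomy of the clock in the liver, and the values below describe the interferon response genes in that design.

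Interferons are signalling proteins released when cells sense viral or other foreign nucleic acid. Type I interferons signal through JAK kinases to a transcription complex that holds STAT2 and IRF9 and binds the interferon-stimulated response element (ISRE), and interferon gamma acts through the gamma-activated site (GAS). The genes they switch on include RNA sensors, enzymes and effectors that block viruses, GTPases that attack pathogen vacuoles, and the machinery that cuts and loads peptides for display to T cells; the liver holds a basal level of many of them without infection, in hepatocytes and in its macrophages, the Kupffer cells.

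The ISRE and GAS letters stand in many of these promoters, and stretches are shown for genes that carry the results below: Isg15, Ifit1 and Rsad2, which cycled in WT, and Gbp2, Gbp7 and Psmb8, which were lower in KO. Promoters were RefSeq sequences of GRCm38.p6, from 250 bases before to 50 bases after the start site, and each stretch below lies wholly before the start site, on the gene's own strand, 5′ to 3′. Capitals mark the ISRE core (GAAA, any 2 bases, GAAA) in the first 5 and the GAS letters (TTCNNNGAA) in Psmb8. Both strands were searched, so TTTC, any 2 bases, TTTC is the same core on the other strand. In Isg15 (chr4:156200850-156200909, minus strand), 3 overlapping cores run together, and in Ifit1 (chr19:34640779-34640838, plus strand) 2 cores stand apart. Rsad2 is at chr12:26456538-26456597 (minus strand), Gbp2 at chr3:142620579-142620638, Gbp7 at chr3:142530258-142530317 and Psmb8 at chr17:34198073-34198131 (plus strand).
Isg15: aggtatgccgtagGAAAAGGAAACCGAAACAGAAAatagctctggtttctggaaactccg
Ifit1: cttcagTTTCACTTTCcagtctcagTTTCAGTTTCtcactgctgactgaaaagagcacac
Rsad2: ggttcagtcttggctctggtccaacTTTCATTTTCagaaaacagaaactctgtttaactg
Gbp2: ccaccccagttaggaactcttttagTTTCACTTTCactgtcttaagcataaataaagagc
Gbp7: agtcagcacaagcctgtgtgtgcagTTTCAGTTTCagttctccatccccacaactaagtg
Psmb8: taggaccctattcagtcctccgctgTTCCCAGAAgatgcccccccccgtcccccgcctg

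Over the 31 listed genes with a promoter in the table, 18 (58.1%) held the ISRE core, against 3.99% of 27025 genes, and 10 (32.3%) held the GAS letters, against 9.55%. The E-box CACGTG, the letters that BMAL1 with its partner CLOCK binds, stood in 0 of the 31 promoters and in 8.09% of all genes; this says only that these letters are not in this window. Dhx58, Gbp6, Mx1, Mx2, Oas2, Parp9, Parp14, Rtp4, Usp18 and Zbp1 had no entry. Several of the genes lie near each other. Gbp7, Gbp3 and Gbp2 lie within chr3:142530336-142638008, Oasl2 and Oasl1 on chromosome 5, and Oas2, Oas1g and Oas1a farther along it. Psmb9, Tap1 and Psmb8 lie within chr17:34182030-34201454, and Ifit2, Ifit3 and Ifit1 on chromosome 19. The Oas, Ifit, Gbp, Irgm and Mx families hold close copies, and no source used here gives how reads shared between copies were assigned, so the split of values within a family is uncertain.

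Basal expression spanned a wide range. Ifitm3, a membrane protein that blocks virus entry, was the highest, with 124 to 278 FPKM in the 18 WT livers (median 212), and 133 to 261 in KO and 112 to 269 in Liver-RE. Bst2 (tetherin, which holds budding virus at the cell surface) followed with 142 FPKM ± 17.7 (SD, n = 18) in WT. Mx1 was the lowest in WT at 0.209 to 1.15 FPKM (median 0.654). The Mx genes encode antiviral GTPases in many mammals, but Mx1 is known to be defective in C57BL/6 mice, and RefSeq lists Mx1 and Mx2 as transcribed pseudogenes. The group varied more among mice of 1 genotype and time than most genes: the SD within groups of 3 on the log2(FPKM + 1) scale had a median of 0.299 over the 40 genes and 0.181 over all 11759 genes tested. The widest were Zbp1 (0.533), a sensor of Z-form nucleic acid, and Psmb9 (0.526), an immunoproteasome subunit.

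The genes tended to be high or low together in a mouse. In Liver-RE at ZT4 replicate 1 and WT at ZT4 replicate 2 all 40 were above their own median over the 54 libraries, and in Liver-RE at ZT16 replicate 3 none was. Liver-RE ZT8 replicate 1, where 1 of 40 was above, and Liver-RE ZT16 replicate 3 also stood apart over all genes. The median deviation of all genes from their own medians was -0.203 and -0.161 there. KO ZT0 replicate 2 stood apart at 0.170. WT ZT8 replicate 2 had its clock out of phase: Arntl, which encodes BMAL1, was at 10.6 FPKM there and at 0.414 and 0.563 in the other two, and Dbp, a direct clock target, was at 1.31 against 61.9 and 66. Arntl RNA was present at 6.26 to 8.74 FPKM in all 18 KO livers, so its level does not check the label, but Dbp stayed between 0.555 and 2.56 FPKM there, against 0.388 to 66 in WT and 0.68 to 43.8 in Liver-RE. Where the calls of a comparison below changed without these 4 libraries, both are given. A fall in a whole liver cannot be told apart as fewer cells of a type or less RNA per cell. The p-values rest on the spread of the 54 libraries around the fitted daily curves, pooled over the 3 genotypes. The labels give 3 animals per group.

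**Figure D1:**
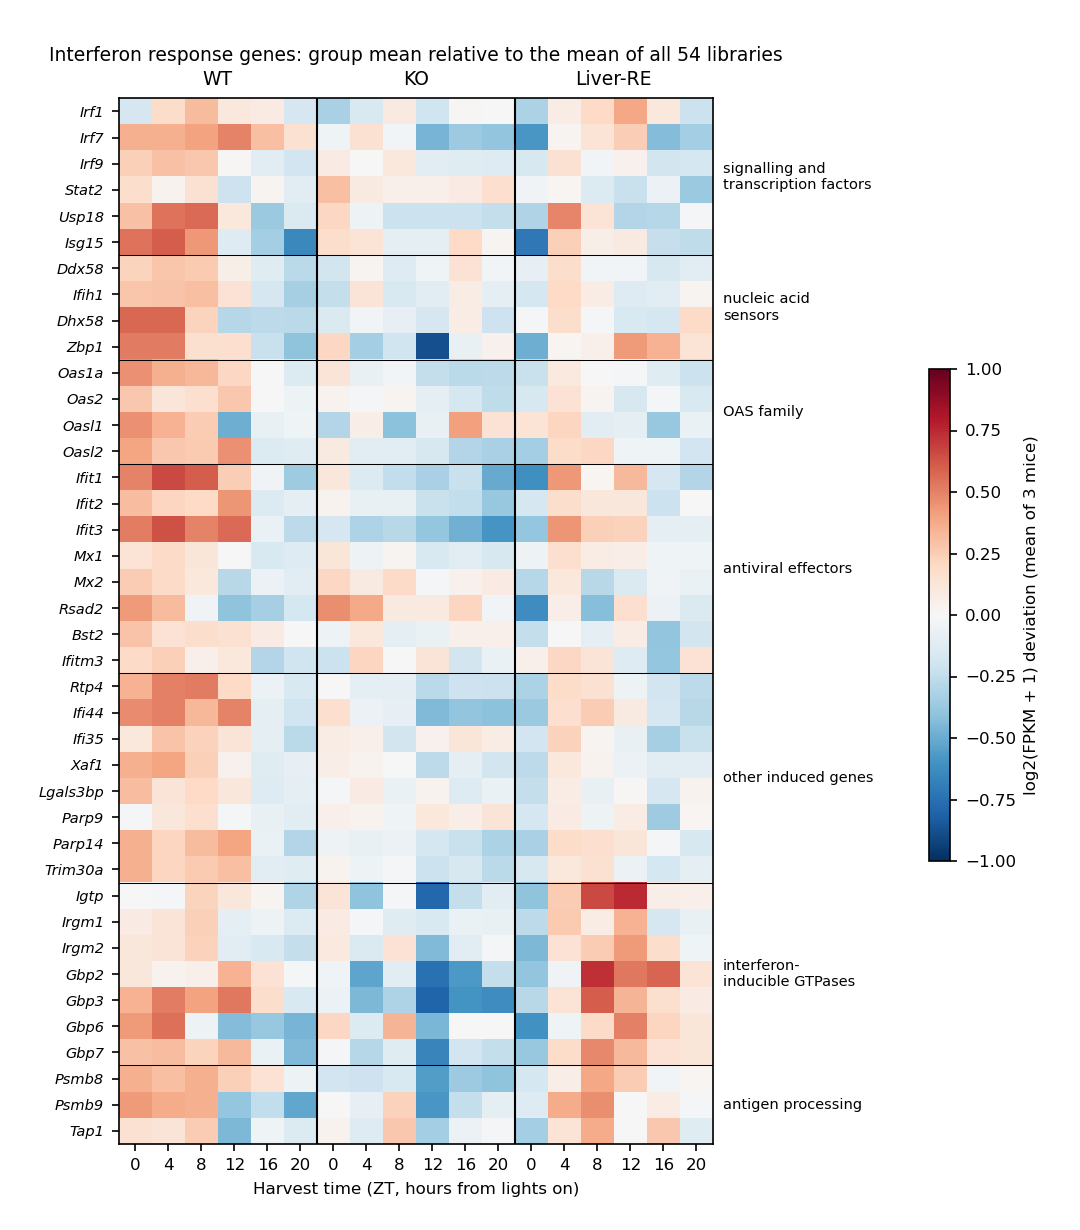
Group means of the 40 interferon response genes by genotype and harvest time (columns, ZT in hours), as the difference in log2(FPKM + 1) from each gene's mean over 54 libraries; red is higher, blue is lower, and each cell is a mean of 3 mice. WT columns are mostly red from ZT0 to ZT8 and blue at ZT20, where 23 genes had their lowest WT mean, and the Liver-RE column at ZT0 is mostly blue, where 27 had their lowest.

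In WT livers, 17 of the 40 genes cycled over the day, and all 17 peaked in the light phase, between ZT2.14 and ZT7.01. The share over all 11759 genes was 23.5%, and 30.7% of the 2760 genes that cycled in WT peaked between ZT2 and ZT8. Each rhythm is a 24 h cosine fitted to log2(FPKM + 1) and tested with limma, with p-values adjusted by the Benjamini-Hochberg method over all genes at a threshold of 0.05. The fitted peak-to-trough folds of the 17 had a median of 1.65, from 1.37 to 2.35.

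Among signalling proteins, Isg15, Usp18 and Irf9 cycled in WT. Isg15, a ubiquitin-like protein that is joined to other proteins, was at 10.9, 12 and 10 FPKM at ZT0 and at 8.19, 16.2 and 11.4 at ZT4, and had dropped to 2.44, 7.03 and 4.24 at ZT20. No ZT0 or ZT4 liver overlapped with a ZT20 liver. Its fitted fold was 2.35 with a peak at ZT4.72 (limma, adjusted p = 0.00304). Usp18, the protease that removes ISG15 and damps the type I receptor, was at 10, 5.74 and 12.2 FPKM at ZT8 and at 4.48, 4.32 and 3.77 at ZT16. All ZT8 values lay above all ZT16 values, and the lowest of the ZT8 values belonged to the mouse whose clock was out of phase. The fitted fold was 1.94 (peak ZT5.24, limma adjusted p = 0.00183). Irf9, the DNA-binding subunit of the complex with STAT2, had a fold of 1.43 (adjusted p = 0.00699), while the test was not passed by Irf1 (1.37, adjusted p = 0.235), Irf7 (1.18, adjusted p = 0.683) or Stat2 (1.18, adjusted p = 0.512).

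All 3 RNA helicase sensors cycled in WT. Dhx58 (LGP2, which tunes the other sensors) was at 4.76, 5.35 and 5.51 FPKM at ZT0, at 4.57, 5.84 and 5.22 at ZT4 and at 3.38, 4.39 and 3.83 at ZT8. In the dark phase it was at 2.95, 1.93 and 2.45 at ZT12, at 2.41, 2.33 and 2.66 at ZT16 and at 1.84, 3.81 and 2.02 at ZT20. Every ZT0 and ZT4 value was above every value from ZT12 to ZT20. Its fitted fold of 2.04 with a peak at ZT3.21 had the smallest p of the group (limma, adjusted p = 8.41e-06). Ddx58 (RIG-I) and Ifih1 (MDA5), which detect viral RNA in the cytoplasm, had folds of 1.45 and 1.54 (adjusted p = 0.00671 and 0.00647). Zbp1 had a fold of 1.75 that did not pass (adjusted p = 0.15).

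Of the other genes, 4 of 8 antiviral effectors, 4 of 8 further induced genes, 2 of 4 OAS genes, 1 of 7 GTPases and 0 of 3 antigen processing genes cycled in WT. Ifit1 and Ifit3, which bind foreign RNA and halt its translation, had folds of 1.95 and 1.8, Rsad2 (viperin, which makes a chain-terminating nucleotide) 1.81, and Mx2 1.37. Rtp4, an interferon-induced zinc finger protein, was at 10.4, 7.52 and 10.3 FPKM at ZT8 and at 3.36, 8.55 and 5.51 at ZT20. These groups overlapped in 1 liver, ZT20 replicate 2. The fitted fold of Rtp4 was 1.65 with a peak at ZT5.67 (limma, adjusted p = 0.00311). Gbp6, a guanylate-binding GTPase, had a fold of 2.11 (peak ZT3.09, adjusted p = 0.0123), and Oasl1, an OAS-like protein that holds back Irf7 translation, 1.73 (adjusted p = 0.0287). The others were Oas1a (1.41), Xaf1 (1.47), Ifi35 (1.42) and Parp14 (1.45). Among genes that did not pass, Psmb9 had a fold of 1.97 (adjusted p = 0.062). Without the 4 libraries that stood apart 24 genes cycled in WT, with Psmb9 (fold 1.98, adjusted p = 0.0315), Oasl2, Mx1, Ifitm3, Ifi44, Trim30a and Gbp7 added. Without WT ZT20 replicate 1 the number that cycled was 13, and without WT ZT8 replicate 2 it was 20; among the calls lost in such fits were Oas1a, Oasl1, Parp14, Ifi35 and Ifit3.

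**Figure D2:**
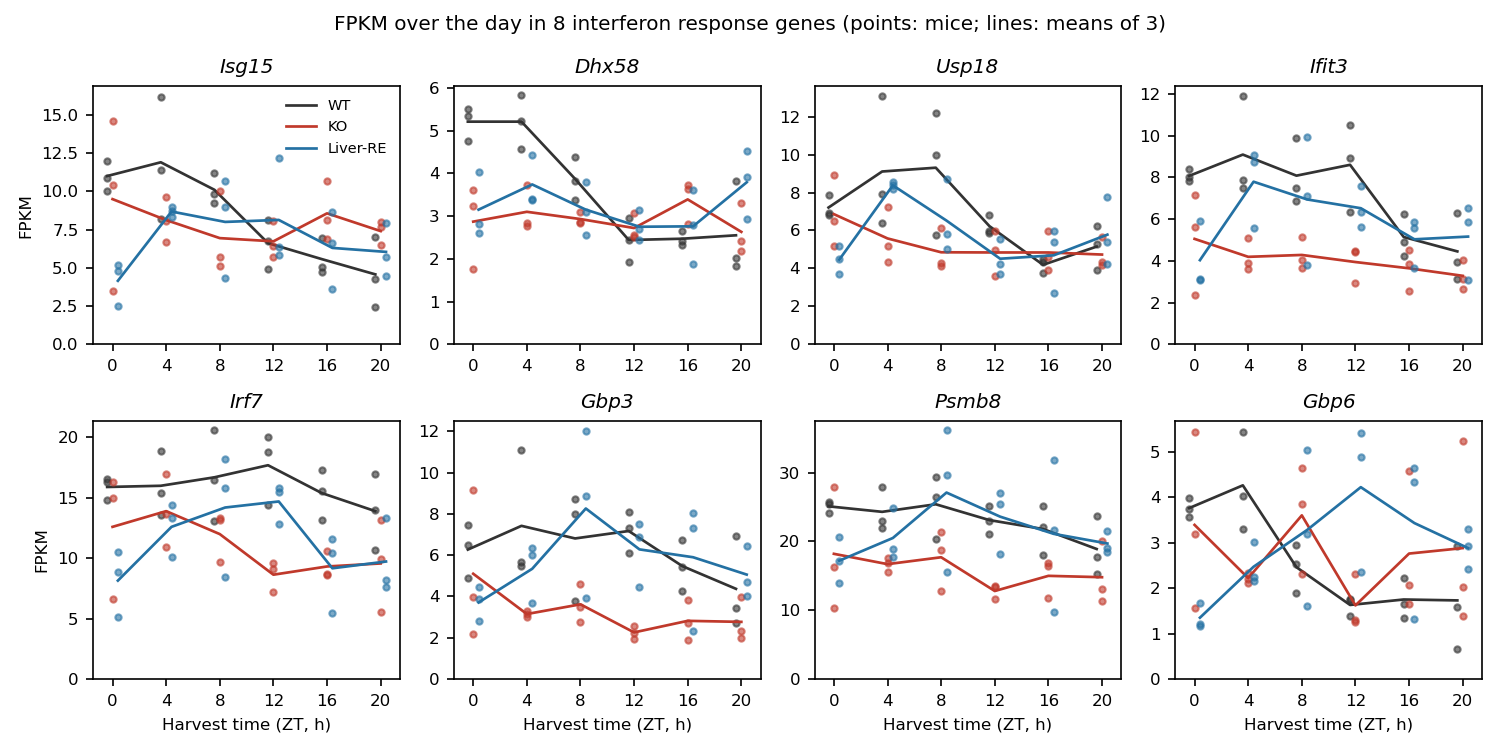
FPKM against harvest time (ZT, h) for 8 interferon response genes in WT (black), KO (red) and Liver-RE (blue); points are single mice and lines join means of 3. Isg15, Dhx58 and Usp18 are high from ZT0 to ZT8 in WT, Irf7 is lower in KO and Liver-RE than in WT, and Gbp3 and Psmb8 are lower in KO.

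In KO livers, 0 of the 40 genes passed the rhythm test (limma, Benjamini-Hochberg), and neither did any of the 11759 genes (0%); at an unadjusted p under 0.05 there were 2 of 40 and 1105 of all genes. The smallest adjusted p of the group was 0.484. For the 17 genes that cycled in WT, the median fitted fold was 1.65 in WT, the value they were called on, 1.18 in KO and 1.37 in Liver-RE. Whether a rhythm differed between genotypes was tested directly for each gene. It differed between KO and WT for 4 genes, Dhx58, Ddx58, Oasl1 and Ifi35, while 7.78% of all genes differed.

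Dhx58 was at 3.24, 3.61 and 1.75 FPKM in KO at ZT0 and at 2.81, 3.72 and 3.64 at ZT16. At ZT0, ZT4 and ZT8 all 3 KO livers were below, and at ZT16 all 3 above, the 3 WT livers. The KO fold was 1.04 against 2.04 in WT, and the rhythms differed (limma, adjusted p = 0.00352). This call was lost in 0 of 63 other fits. Ddx58 was at 7.63, 7.22 and 5.52 FPKM in KO at ZT0, where WT had 8.11, 10.1 and 9.52, and its fold was 1.12 in KO (adjusted p of the difference = 0.039, lost in 14 of 63 other fits). Oasl1 was at 3.14, 3.05 and 2.19 FPKM in KO at ZT0 and at 3.56, 5.86 and 6.31 at ZT16. The KO values at these times did not overlap. WT had 3.69, 6.38 and 6.31 at ZT0 and 3.8, 3.16 and 3.17 at ZT16, where 2 of the ZT0 livers were above all of ZT16. Its fitted peak was at ZT17.45 in KO and ZT2.14 in WT (adjusted p of the difference = 0.0407, lost in 15 of 63). Ifi35, which forms a complex with NMI in interferon-treated cells, was at 9.47, 10.2 and 10.2 FPKM in WT and at 11.1, 15.3 and 12.6 in KO at ZT20, without overlap (adjusted p of the difference = 0.046, lost in 26 of 63). For Isg15 and Usp18 the differences did not pass (adjusted p = 0.0704 and 0.124); both passed without the 4 libraries that stood apart (0.0288 and 0.0434).

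Mean levels over the day were lower in KO than in WT for 17 of the 40 genes and higher for 0, where all genes had 13.5% lower and 16.5% higher. At an unadjusted p under 0.05 (limma) there were 20 of 40 and 4782 of all 11759 genes, in either direction. The median log2 fold change was -0.17 over the 40 genes and 0.02 over all genes, and 35 of the 40 estimates were below 0. Higher calls were 0 in all but 1 of the fits that each left out a library, and 1 gene was higher without KO ZT0 replicate 3.

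**Figure D3:**
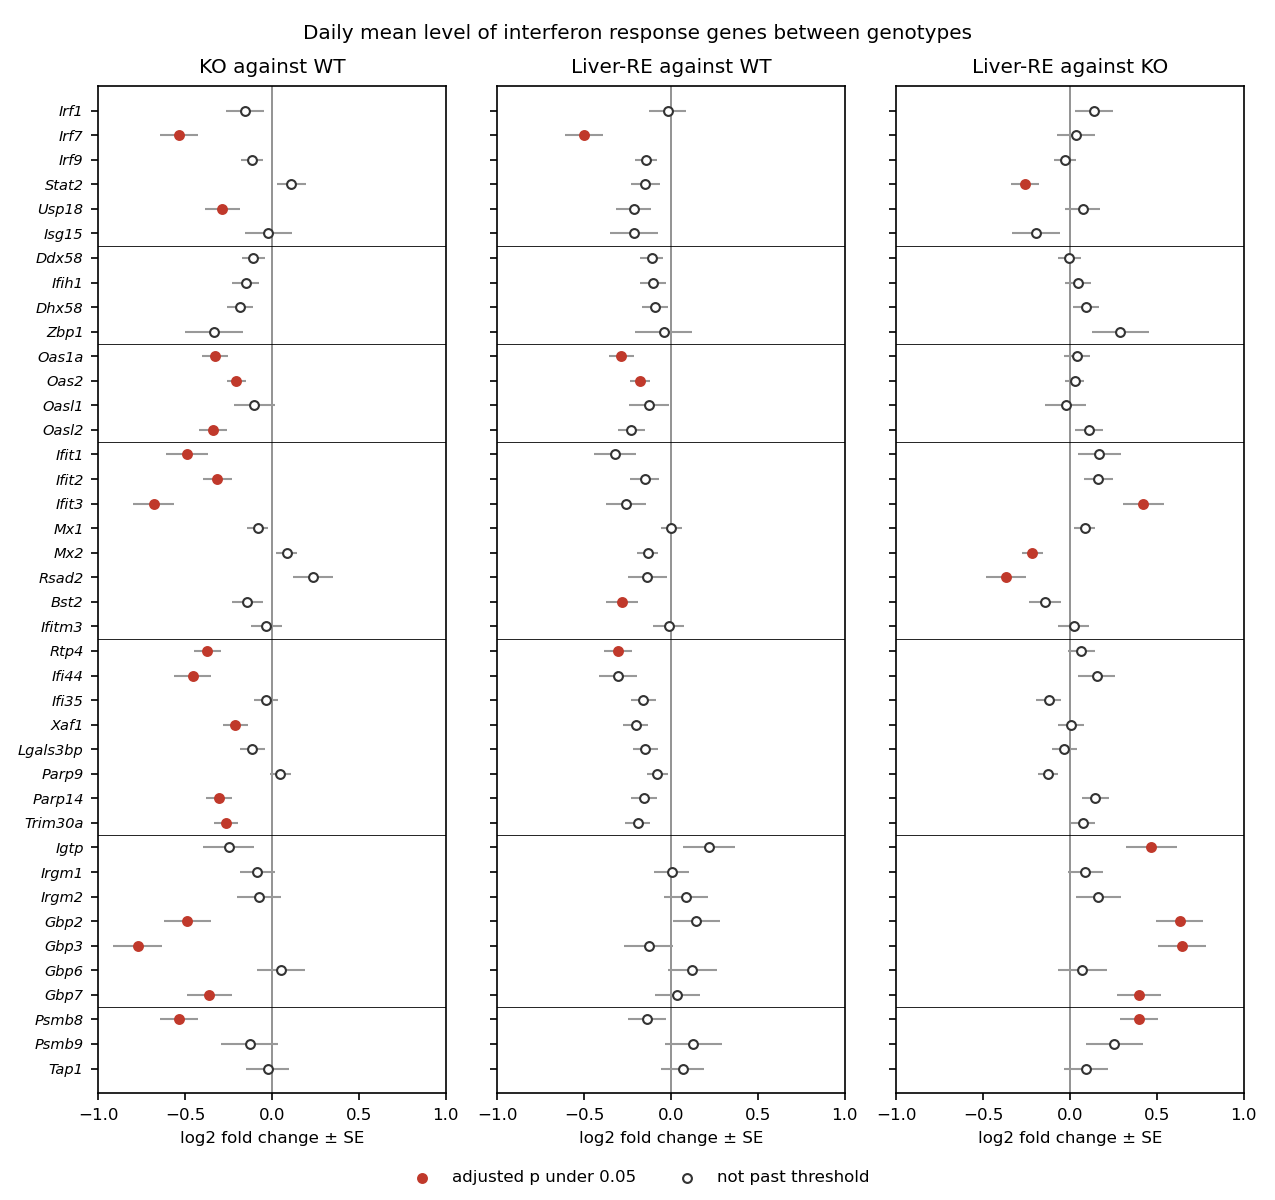
Difference in daily mean log2(FPKM + 1) between genotypes for the 40 genes, ordered by role from signalling proteins (top) to antigen processing (bottom); points are limma estimates, bars are ± SE and filled points passed the adjusted threshold. Filled points number 17 for KO against WT, 5 for Liver-RE against WT and 9 for Liver-RE against KO, of which 6 lie to the right.

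Among signalling proteins, Irf7 and Usp18 were lower in KO. Irf7, the factor that amplifies type I interferon production, lay between 10.7 and 20.6 FPKM in the 18 WT livers (median 16) and between 5.54 and 17 in KO (median 10.3). The ranges overlapped over the day, but at ZT12 and ZT16 no KO value reached a WT value. The log2 change was -0.53 ± 0.11 (SE, limma, adjusted p = 0.000145). Usp18 changed by -0.29 ± 0.10 (adjusted p = 0.0266), whereas Isg15 had -0.02 ± 0.14 (adjusted p = 0.932) and Stat2, a subunit of the type I transcription complex, 0.11 ± 0.08 (adjusted p = 0.323). None of the 4 sensors passed with all libraries: Zbp1 had -0.33 ± 0.17, Dhx58 -0.18 ± 0.08, Ifih1 -0.15 ± 0.08 and Ddx58 -0.11 ± 0.07. Without the 4 libraries that stood apart, 20 genes were lower in KO, with Dhx58 (-0.19, limma adjusted p = 0.0408), Zbp1 (-0.39, adjusted p = 0.0491) and Irf9 (-0.14, adjusted p = 0.0333) added.

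Oas1a and Oas2, whose products make the 2-5A signal that activates RNase L, were lower in KO. Of the OAS-like genes, Oasl2 was lower in KO and Oasl1 did not pass. The 3 Ifit genes were all lower in KO. Ifit3 lay between 3.15 and 11.9 FPKM in WT (median 7.49) and between 2.35 and 7.17 in KO (median 3.97). It was below WT without overlap at ZT0, ZT4, ZT8 and ZT12. Its log2 change was -0.68 ± 0.12 (limma, adjusted p = 6.71e-06), beside -0.49 for Ifit1 and -0.31 for Ifit2. The 5 other antiviral effectors did not pass, and Rsad2 (0.24 ± 0.12, adjusted p = 0.115) and Mx2 (0.08 ± 0.06, adjusted p = 0.303) had estimates above 0. Of the further induced genes, Ifi44, Rtp4, Parp14 (an ADP-ribosyltransferase), Trim30a (a ubiquitin ligase) and Xaf1 were lower, by -0.46, -0.37, -0.30, -0.27 and -0.21 on the log2 scale. Parp9, Lgals3bp and Ifi35 did not pass.

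Among the GTPases, 3 of 7 were lower. Gbp3, Gbp2 and Gbp7, which lie near each other on chromosome 3, were the lower genes in KO. Gbp3 lay between 2.7 and 11.1 FPKM in WT (median 6.29) and between 1.9 and 9.17 in KO (median 2.89). The KO mouse at 9.17 FPKM was ZT0 replicate 1, and the other 2 mice of that time were at 3.96 and 2.16. The change was -0.77 ± 0.14 (limma, adjusted p = 2e-05). Gbp2 changed by -0.49 ± 0.14 and Gbp7 by -0.36 ± 0.13; the Gbp7 and Xaf1 calls were lost without KO ZT0 replicate 3 (adjusted p = 0.0552 and 0.0502). Gbp6, on chromosome 5, and the immunity-related GTPases Igtp, Irgm1 and Irgm2 did not pass. In antigen processing, Psmb8, the catalytic subunit LMP7 of the immunoproteasome, lay between 15.3 and 29.4 FPKM in WT (median 23.3) and between 10.4 and 27.9 in KO (median 15.9). At ZT4, ZT12 and ZT16 the genotypes did not overlap. Its change was -0.54 ± 0.11 (limma, adjusted p = 0.000125), while Psmb9 (-0.13 ± 0.16) and the peptide transporter subunit Tap1 (-0.02 ± 0.13) did not pass.

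The number of genes without overlap between KO and WT changed with the hour. Each count sets 3 livers against 3, for genes that tended to be high or low together in a mouse. Tested as a rhythm difference, a change of the gap over the day passed for 4 of the 40 genes (10%, near the 7.78% of all genes). KO lay below WT without overlap for 7 genes at ZT0 (7.98% of all genes), 24 at ZT4 (10.2%), 13 at ZT8 (16.5%), 19 at ZT12 (19.5%), 6 at ZT16 (10.5%) and 0 at ZT20 (7.47%). KO lay above WT for 2 genes each at ZT12 (Stat2 and Rsad2, 17.2% of all genes), ZT16 (Ifih1 and Dhx58, 19.1%) and ZT20 (Ifi35 and Parp9, 20.1%), and for 0 at ZT0 (7.59%), ZT4 (12.4%) and ZT8 (7.01%). With quantile normalization, and with the 20 highest genes left out, KO lay above WT for 0 and 0 genes at ZT16, 1 and 1 at ZT20 and 2 and 1 at ZT12. It lay below for 2 and 0 at ZT20, and for 23 and 27 at ZT4. In WT, 15 genes had their highest group mean at ZT4 and 23 their lowest at ZT20; in KO, 25 had their highest at ZT0 and 19 their lowest at ZT12.

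**Figure D4:**
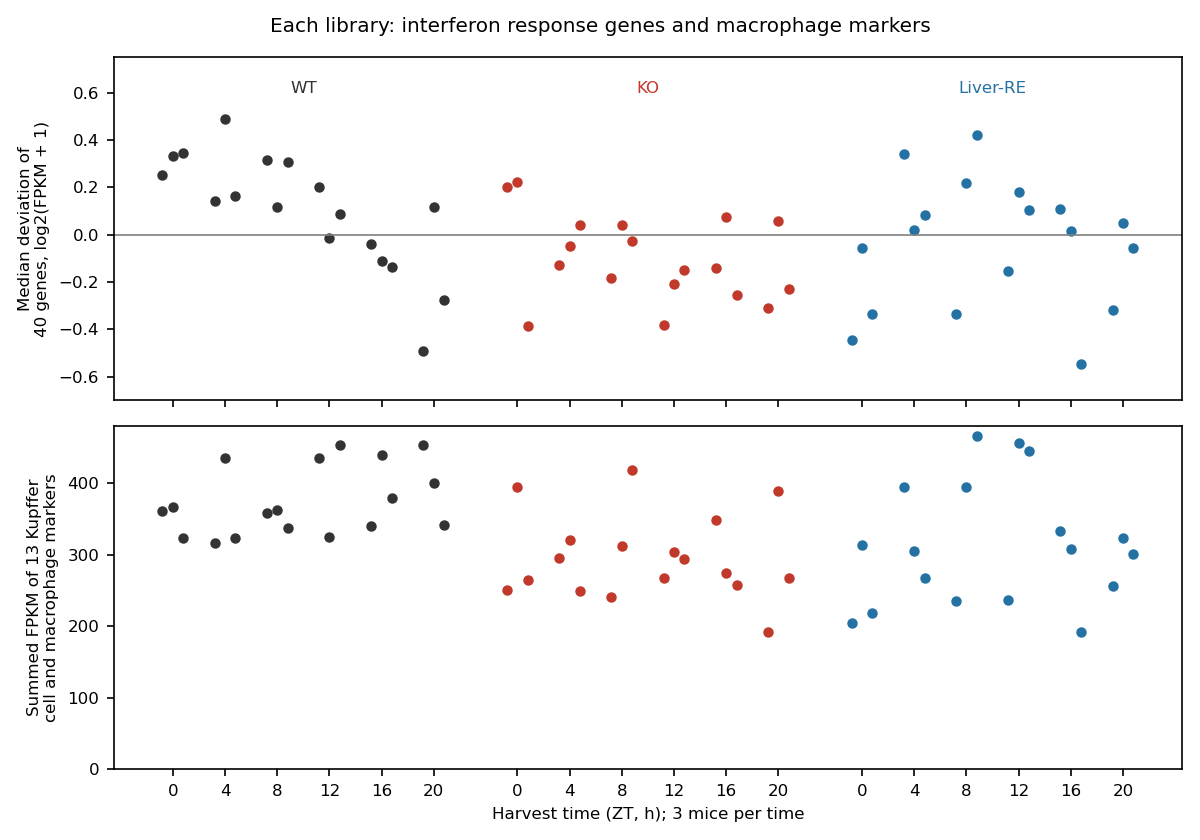
Each of 54 libraries by genotype and harvest time (ZT, h). The upper panel shows the median deviation of 40 interferon response genes in log2(FPKM + 1), each from its own median over 54 libraries. The lower panel shows the summed FPKM of 13 Kupffer cell and macrophage markers. The Liver-RE mice with the lowest deviations (-0.546 at ZT16 and -0.447 at ZT0) had marker sums of 192 and 204, while WT ZT20 replicate 1, at -0.492, had a sum of 454.

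Markers of Kupffer cells and other macrophages were counted beside these levels. Of 13 such markers, all measured, 11 were lower in KO than in WT (84.6%, against 13.5% of all genes). In Liver-RE 5 were lower than in WT (38.5%, against 5.88% of all genes). Between Liver-RE and KO 0 differed (limma, 0 with an unadjusted p under 0.05), where 7.42% of all genes were higher and 26.7% lower. Those lower in Liver-RE than in WT were 3 without each of Liver-RE ZT0 replicate 1, ZT8 replicate 1, ZT12 replicate 1 and ZT16 replicate 3, and 3 without the 4 libraries that stood apart, where 2 were also higher in Liver-RE than in KO. Their summed level was 317 to 454 FPKM in WT (median 362), 192 to 419 in KO (median 284) and 192 to 467 in Liver-RE (median 306). Clec4f, which marks Kupffer cells, had means of 64, 48.7 and 50.1 FPKM in the 3 genotypes, and a log2 change of -0.40 ± 0.09 in KO (limma, adjusted p = 0.000756). In WT, 0 of the 13 cycled (limma), beside 17 of the 40 interferon response genes and 23.5% of all genes. At an unadjusted p under 0.05 there were 1 of the 13 and 4424 of all 11759 genes. All 12 hepatocyte markers were measured. Between Liver-RE and WT all 12 estimates were below 0, with a median log2 change of -0.22. In Liver-RE 1 was lower (8.33%, against 5.88% of all genes), and 0 were without the 4 libraries. Between KO and WT the median log2 change of the 12 was -0.01, with 6 estimates above and 6 below 0. Of these, 3 were lower in KO, among them Alb, the albumin gene, with means of 3.69e+04 FPKM in WT and 1.67e+04 in KO, and with either other scaling 1 was. Of the 4 measured T and NK cell markers 2 were lower in KO (50%, against 13.5% of all genes). The T and NK cell list had a summed median of 5.56 FPKM in WT and 3.11 in KO. The 10 liver endothelial markers were all measured, with 1 estimate above and 9 below 0 between KO and WT. In KO 2 were lower (20%) and 1 higher (10%), beside 13.5% and 16.5% of all genes. Without the 4 libraries that stood apart 7 were lower. Of 6 markers of plasmacytoid dendritic cells, known producers of type I interferon, 5 had means from 0.032 (Pacsin1) to 0.28 FPKM (Ccr9). Siglech was at 0.24. Ly6d, the 1 tested, had means of 0.9 FPKM in WT and 1.97 in KO and was higher in KO (0.52 ± 0.16, limma, adjusted p = 0.01); the 6 together had a summed median of 1.4 FPKM in WT and 1.99 in KO. The part of these cells in the lower levels and in the WT rhythms was not tested.

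Liver-RE livers were lower than WT in 5 of the 40 genes and higher in 0, beside 5.88% and 1.18% of all genes. At an unadjusted p under 0.05 (limma) there were 17 of 40 and 2939 of all 11759 genes, in either direction. The median log2 fold change was -0.14 over the 40 genes and -0.06 over all genes. Irf7 had the lowest estimate. It lay between 5.1 and 18.2 FPKM in Liver-RE (median 11.1), and at ZT0 the 3 values of 5.1, 10.5 and 8.86 were below the WT values of 16.3, 14.8 and 16.6. Its change was -0.50 ± 0.11 (limma, adjusted p = 0.00278), and between Liver-RE and KO it had 0.03 ± 0.11 (adjusted p = 0.841). Rtp4 had 3.62 to 9.33 FPKM in Liver-RE (median 5.89) against 3.36 to 11.7 in WT (median 7.8), a change of -0.31 ± 0.08 (limma, adjusted p = 0.014). Oas1a had 0.441 to 1.61 FPKM (median 1.25) against 0.769 to 2.48 (median 1.41), a change of -0.29 ± 0.07 (limma, adjusted p = 0.0128). Oas2 (-0.18 ± 0.06, adjusted p = 0.0416) and Bst2 (-0.28 ± 0.09, adjusted p = 0.0463) were also below WT, but the calls were lost in 19 and 29 of 63 other fits, and without the 4 libraries that stood apart 3 genes remained lower. The ranges of all these genes overlapped between the genotypes.

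Genes below WT without overlap were most numerous at lights on. Each count sets 3 livers against 3, for genes that tended to be high or low together in a mouse. Tested as a rhythm difference, a change of the gap over the day passed for 2 of the 40 genes (5%, near the 3.51% of all genes). At ZT0, all 3 Liver-RE livers were below all 3 WT livers for 30 of the 40 genes, against 15% of all genes, and at the other times for 3 at ZT4 (5.7%), 2 at ZT8 (11.9%), 7 at ZT12 (20.3%), 1 at ZT16 (Irf7, 14.2%) and 0 at ZT20 (9.21%). Isg15 was at 2.51, 5.18 and 4.76 FPKM in Liver-RE at ZT0, where WT had 10.9, 12 and 10. At ZT4 it was at 8.34, 8.98 and 8.73 in Liver-RE, inside the WT range. Rsad2 was at 1.47, 3.62 and 2.4 FPKM at ZT0 against 7.74, 4.74 and 5.91 in WT. The Kupffer cell marker sums at ZT0 were 204, 314 and 219 FPKM in Liver-RE and 361, 367 and 323 in WT, also without overlap, and their part in the ZT0 gap was not tested. With quantile normalization, and with the 20 highest genes left out and the libraries rescaled, 29 of the 40 genes were below WT at ZT0. With these 2 scalings, in the same order, the counts below WT were 6 and 8 at ZT4 and 2 and 8 at ZT12, and those above were 2 and 1 at ZT8 and 8 and 7 at ZT12. At ZT12, 6 genes were above WT without overlap (5.38% of all genes): Gbp6, Irgm1, Irgm2, Rsad2, Mx2 and Tap1. At ZT0 (4.32%), ZT4 (7.25%), ZT8 (1.62%), ZT16 (7.53%) and ZT20 (6.71%) 0 genes were.

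Liver-RE livers were higher than KO in 6 of the 40 genes (7.42% of all genes) and lower in 3 (26.7%). The higher genes were the GTPases Gbp3, Gbp2, Gbp7 and Igtp, with Ifit3 and Psmb8. The lower genes were Rsad2, Stat2 and Mx2. The median over the 40 was 0.07 and over all genes -0.07 on the log2 scale, and all 7 GTPases had estimates above 0, with a median of 0.40. The split of 6 higher and 3 lower was 8 and 2 with quantile normalization and 8 and 1 with the 20 highest genes left out.

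Gbp2 lay between 2.88 and 12.8 FPKM in Liver-RE (median 5.08) and between 1.68 and 9.46 in KO (median 2.93). The highest Liver-RE values were at ZT8 to ZT16, with 5.3, 7.11 and 12.8 at ZT8 and 9.19, 9.04 and 4 at ZT16, where KO had 2.79, 2.95 and 2.09. Its change was 0.63 ± 0.14 (limma, adjusted p = 0.000255). Gbp3 lay between 2.34 and 12 FPKM in Liver-RE (median 5.36), and its change was 0.65 ± 0.14 (adjusted p = 0.000314). Igtp, an immunity-related GTPase of the pathogen vacuole, was at 24.5, 47 and 42.6 FPKM in Liver-RE at ZT12 and at 10.5, 9.22 and 17.9 in KO. Those groups did not overlap, and the change over the day was 0.47 ± 0.15 (adjusted p = 0.0119). Ifit3 lay between 3.06 and 9.91 FPKM in Liver-RE (median 5.87), with a change from KO of 0.42 ± 0.12 (limma, adjusted p = 0.00379). Psmb8 lay between 9.76 and 36.2 (median 19.9), with a change of 0.40 ± 0.11 (adjusted p = 0.00382). The comparisons of KO and of Liver-RE with WT share the WT livers, and those of WT and Liver-RE with KO share the KO livers. Against WT, Gbp2, Gbp3, Gbp7, Ifit3 and Psmb8 in Liver-RE had 0.15 ± 0.14, -0.13 ± 0.14, 0.04 ± 0.13, -0.26 ± 0.12 and -0.14 ± 0.11, none past the threshold.

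Rsad2 was lower in Liver-RE than in KO (-0.37 ± 0.12, limma, adjusted p = 0.0104), with a range of 1.47 to 5.99 FPKM against 2.85 to 9.5; the ranges overlapped, and the adjusted p was 0.0638 without the 4 libraries that stood apart. Stat2 (-0.26 ± 0.08, adjusted p = 0.0128) lost its call under both other scalings and Mx2 (-0.22 ± 0.06, adjusted p = 0.00428) with the 20 highest genes left out. Without the 4 libraries the higher genes numbered 10, with Zbp1, Ifit1, Ifit2 and Parp14 added. Liver-RE lay above KO without overlap for 11 genes at ZT4 (8.64% of all genes) and 17 at ZT12 (6.11%), and for 0 at ZT0 (4.91%) and ZT8 (6.05%), 2 at ZT16 (6.26%) and 1 at ZT20 (4.79%). With quantile normalization, and with the 20 highest genes left out, it lay above KO for 21 and 19 genes at ZT12, 2 and 0 at ZT8, 3 and 4 at ZT16 and 2 and 0 at ZT20. It lay below KO for 3 genes at ZT0 (10.2%) and 2 at ZT8 (12.3%), for 1 each at ZT16 (23.6%) and ZT20 (18.8%), and for 0 at ZT4 (9.69%) and ZT12 (18.2%); at ZT0 it was 1 gene with either other scaling.

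Rhythms in Liver-RE passed for 0 of the 40 genes (limma, Benjamini-Hochberg), beside 3.82% of all genes; 15 of 40 and 2479 of all genes had an unadjusted p under 0.05, and the smallest adjusted p was 0.0509, for Gbp2. A fitted fold of at least 1.5 was seen for 13 genes in Liver-RE, 14 in WT and 2 in KO. The median over the 40 was 1.38, 1.41 and 1.21, and over all genes 1.16, 1.2 and 1.12; the part of the wider spread within groups in these folds was not tested. Fitted peaks of the 7 GTPases lay between ZT8.87 (Irgm1) and ZT12.50 (Gbp6) in Liver-RE, with the highest folds for Gbp2 (2.02, ZT12.04) and Igtp (2.02, ZT10.21). The count changed with 1 library. Without Liver-RE ZT8 replicate 1, 8 genes passed: Irf1, Irf7, Ifit1, Parp14, Igtp, Irgm1, Irgm2 and Gbp2, with folds from 1.49 (Parp14) to 2.31 (Igtp). Without all 4 libraries that stood apart 9 passed, with Gbp6 added.

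**Figure D5:**
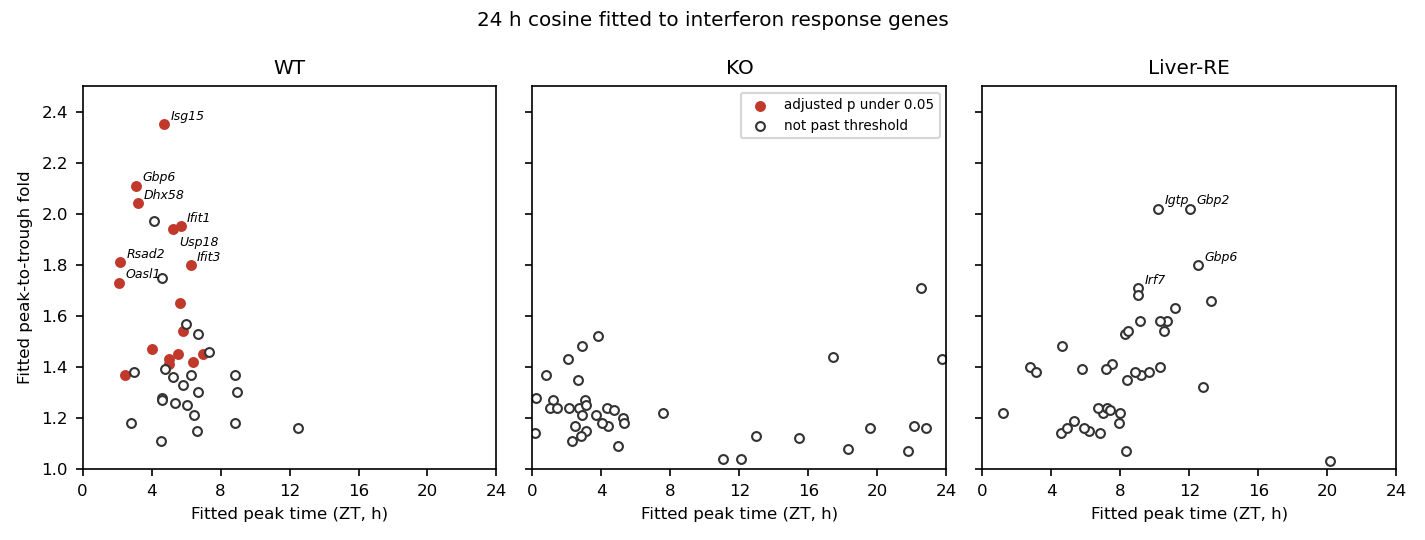
Fitted peak-to-trough fold against fitted peak time (ZT, h) of a 24 h cosine for the 40 genes in WT, KO and Liver-RE; filled points passed the adjusted threshold and genes with large folds are named. The 17 filled points of WT lie between ZT2.14 and ZT7.01, and KO and Liver-RE have no filled point.

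Between Liver-RE and WT, 2 genes differed in rhythm, Gbp6 and Rsad2 (3.51% of all genes), and between Liver-RE and KO for 0 (0.238% of all genes), where 11 of 40 and 1460 of all genes had an unadjusted p under 0.05. Gbp6 was at 3.73, 3.57 and 3.99 FPKM in WT at ZT0 and at 1.73, 1.38 and 1.77 at ZT12. All ZT0 livers were above all ZT12 livers. In Liver-RE the order was turned, with 1.21, 1.67 and 1.16 at ZT0 and 2.36, 5.42 and 4.89 at ZT12, so that the genotypes did not overlap at either time. The fitted peak was at ZT3.09 in WT and ZT12.50 in Liver-RE (limma, adjusted p of the difference = 0.0115, lost in 0 of 63 other fits). Rsad2 was at 3.06, 3.09 and 2.71 FPKM in WT at ZT12, and all 3 Liver-RE values of 5.09, 5.9 and 3.82 were above them. Its peak was at ZT2.17 in WT and ZT12.80 in Liver-RE (adjusted p of the difference = 0.0471, lost in 31 of 63). Without Liver-RE ZT12 replicate 1, and without the 4 libraries together, 1 gene differed in rhythm between Liver-RE and KO; in the latter fit it was Igtp (adjusted p = 0.0367). In that fit Dhx58 also differed between Liver-RE and WT (adjusted p = 0.0266), which made 3 genes.

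Upstream genes of the pathway were measured beside the group. Of 11 interferon genes listed, 2 were in the table: Ifng was listed at 0 to 0.194 FPKM, and Ifnk, with a mean of 0.879, passed no test with all libraries and was higher in KO than in WT without the 4 that stood apart, and also without KO ZT16 replicate 3 alone. Of 12 measured receptor and proximal signalling genes, 1 was higher (8.33%) and 3 were lower (25%) in KO than in WT. The shares of all genes were 16.5% and 13.5%. Ifnar2, a chain of the type I receptor, had means of 13.8, 16.1 and 13.8 FPKM in WT, KO and Liver-RE and was higher in KO (0.21 ± 0.05, limma, adjusted p = 0.000282). Il10rb, shared by the receptors of interleukin-10 and interferon lambda, was lower in KO (-0.37 ± 0.06, adjusted p = 2.87e-06), as were Jak2 and Ifngr2. Of 14 genes of interferon induction 2 were higher (Traf3 and Ikbke) and 2 lower (Irf8 and Tlr7) in KO, 14.3% each way, near the 16.5% and 13.5% of all genes. Irf5 and Mavs cycled in WT, which is 14.3% against 23.5% of all genes, and 4 of the 14 did without the 4 libraries that stood apart.

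Further interferon-induced genes outside the 41 were also counted. Of 46 measured, 14 were lower (30.4%) and 2 higher (4.35%) in KO than in WT, against 13.5% and 16.5% of all genes. In WT 12 cycled (26.1%), near the 23.5% of all genes, and 19 did without the 4 libraries that stood apart. In Liver-RE 2 cycled (4.35%, near the 3.82% of all genes). The number was 10 without Liver-RE ZT8 replicate 1 and 9 without the 4 libraries, and the other fits gave 1 to 6. Ifi27 (52.5 FPKM in WT, 30.5 in KO, a change of -0.82 ± 0.12) and Ifitm1 (5.33 and 3.11 FPKM, -0.64 ± 0.09) were lower. Lgals9, a galectin, and Ly6e, a membrane protein, were the 2 higher genes: Lgals9 had means of 136, 198 and 140 FPKM in WT, KO and Liver-RE, and Ly6e 66.7, 117 and 46.8. Lgals9 had a WT fold of 2.54 with a peak at ZT3.2 (limma, adjusted p = 1e-10). Of 17 antigen presentation genes, 7 were lower in KO than in WT (41.2%, against 13.5% of all genes). In Liver-RE 9 were higher than in KO (52.9%, against 7.42% of all genes). H2-K1, a class I heavy chain, ranged from 401 to 584 FPKM in WT livers, from 234 to 412 in KO livers and from 265 to 728 in those of Liver-RE mice. Its change was -0.56 ± 0.08 in KO against WT (limma, adjusted p = 1.28e-07) and 0.43 ± 0.08 in Liver-RE against KO (adjusted p = 2.37e-05).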

How the data were processed

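Liver RNA of 54 mice was sequenced from stranded libraries after removal of ribosomal RNA, per the labels' protocols. Per the submitters' processing notes, CASAVA 1.8.2 and the build mm10 were used, with no role stated; no source used here gives the aligner, annotation or counting. The authors deposited 1 table of FPKM values, reads per gene scaled to gene length and depth; the file does not name the unit, which was taken from its low-value steps. These steps put the depth near 31.1 ± 3.93 M reads (SD, n = 54; 24.9 to 41.6 M). The steps did not give whole reads, so no count model and no counting interval was used.

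Values were analysed as log2(FPKM + 1) for 11759 genes with a mean of at least 0.5 (6320 left out), a scale that understates changes of low genes. In limma 3.58.1 (R 4.3.3), 1 fit held a mean, cosine and sine (24 h) per genotype, with empirical Bayes and an intensity trend. It tested level, rhythm and rhythm difference, adjusted by the Benjamini-Hochberg method over all genes at 0.05, and was tested on simulated data. "Without overlap" means that all 3 values lie on 1 side of the other 3. The members and lists were chosen with earlier results of these data known. Values by mouse or as ranges are given for up to 4 genes with the smallest p per test, except Oas2, Stat2 and Mx2. They are also given for the highest and lowest gene in WT, and others serve the account by role.

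Alternatives were a pseudocount of 0.1, no filter, 2 other scalings, group means, robust empirical Bayes, a replicate block, only the genotypes concerned, each library left out and, added after seeing the data, 4 libraries left out together. Replicate numbers were not used to pair the samples in the main fit. Python 3.11.15 (pandas 2.3.3, numpy 2.4.6, matplotlib 3.10.9) drew figures and searched promoters. Some values of other genes are not reported here.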

Additional observations from a re-analysis of the deposited data

Results flagged for a closer look

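The rhythm itself differed between KO and WT by the limma test of the difference for 4 interferon response genes: Dhx58 (adjusted p = 0.00352), Ddx58 (0.039), Oasl1 (0.0407) and Ifi35 (0.046). It differed between Liver-RE and WT by the same test for Gbp6 (adjusted p = 0.0115) and Rsad2 (0.0471). These counts were 10% and 5% of the 40 genes, near the 7.78% and 3.51% of all genes. Dhx58 and Gbp6 kept these calls in all 63 other fits; the highest adjusted p was 0.0107 for Dhx58 and 0.0284 for Gbp6, 0.0875 for Ddx58, 0.0901 for Oasl1, 0.104 for Ifi35 and 0.107 for Rsad2.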

How the results depend on the processing

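Each fit that left out 1 library gave these ranges. Genes lower in KO than in WT numbered 15 to 18 and higher genes 0 to 1 (1 without KO ZT0 replicate 3). Liver-RE against WT had 3 to 7 lower and 0 higher. There were 3 without each of WT ZT0 replicates 1, 2 and 3, ZT4 replicate 2 and ZT12 replicates 1, 2 and 3, and Liver-RE ZT0 replicates 1 and 2, ZT4 replicate 2, ZT8 replicate 1, ZT12 replicate 1 and ZT20 replicate 1. Liver-RE against KO had 6 higher in every such fit and 3 to 4 lower. Rhythms in WT numbered 13 to 20 and in KO 0. Rhythms in Liver-RE numbered 0 to 8: 8 without Liver-RE ZT8 replicate 1, 2 without ZT16 replicate 3, and 1 without each of Liver-RE ZT4 replicate 1, ZT12 replicate 1, ZT16 replicate 1 and ZT20 replicates 2 and 3, WT ZT8 replicate 2 and ZT20 replicate 1, and KO ZT0 replicates 1, 2 and 3, ZT4 replicate 3 and ZT8 replicate 3. Rhythm differences between KO and WT numbered 1 to 4. There was 1 without each of WT ZT12 replicates 2 and 3 and ZT20 replicate 3, and KO ZT8 replicates 1 and 3 and ZT16 replicates 2 and 3, and there were 2 without each of WT ZT0 replicate 3, ZT4 replicate 2, ZT8 replicate 3 and ZT20 replicate 1, and KO ZT4 replicate 1 and ZT12 replicate 1. Between Liver-RE and WT they numbered 1 to 3. There was 1 without each of WT ZT0 replicates 1 and 3, ZT4 replicates 2 and 3, ZT8 replicates 1 and 3, ZT12 replicates 1, 2 and 3, ZT16 replicate 2 and ZT20 replicates 1 and 3, Liver-RE ZT0 replicates 1 and 3, ZT4 replicate 2, ZT8 replicate 2, ZT12 replicates 1 and 2, ZT16 replicate 2 and ZT20 replicate 3, and KO ZT4 replicates 1, 2 and 3, ZT12 replicate 2, ZT16 replicates 1 and 3 and ZT20 replicates 2 and 3. Between Liver-RE and KO they numbered 0 to 1 (1 without Liver-RE ZT12 replicate 1).

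With no filter, rhythm differences fell to 1 each for KO and Liver-RE against WT. Rhythms in Liver-RE numbered 1 with quantile normalization and 1 with group means. Genes lower in Liver-RE than in WT were 3 with the 20 highest genes left out, 3 with only the genotypes concerned and 3 without the 4 libraries; with the 20 highest genes left out 1 gene was lower in Liver-RE than in KO. Without the 4 libraries 10 genes were higher in Liver-RE than in KO, 9 cycled in Liver-RE and 1 differed in rhythm between Liver-RE and KO. The cause was not tested.

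The replicate block left 17 lower in KO, 17 cycling in WT, 5 lower in Liver-RE than in WT, 6 higher and 3 lower in Liver-RE than in KO, and 4 and 3 rhythm differences from WT, with 0 elsewhere. Libraries with the same number deviated together with a mean r of 0.040 (from -0.402 to 0.510 over 459 pairs), beside -0.020 for other numbers. Of 54 libraries, 29 correlated best with their own of the 3 numbers. The source of this weak link was not tested. Of the single-gene values over all these settings, 22406 kept their side of the threshold, 160 lost and 114 gained a call. Among level changes called in either fit, 0 reversed. Direction was not checked for the other values.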
